A study of Mus musculus with 265 samples.

Results

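A bidirectional promoter is a stretch of DNA that holds the start sites of a pair of genes on opposite strands, so that transcription leaves it in both directions. Among the 20103 accessible regions measured in single pre-B cells, 1115 (5.55%) were taken as bidirectional promoter regions. Their midpoint lay within 1 kb of the start sites of at least 2 protein-coding genes of GENCODE vM21 on opposite strands. The 7560 regions within 1 kb of exactly 1 protein-coding start site, called single-start regions here, served for comparison. Of the rest, 11317 regions had no such start site within 1 kb and 111 had several on 1 strand. The rule used the positions of start sites and no measured value. A gene pair is written with the reverse-strand gene before the forward-strand gene.

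The cells were ERt2-Ikaros B3 cells, a mouse pre-B cell line that carries an inducible form of the transcription factor Ikaros, which acts after 4-hydroxytamoxifen (4OHT) is added. Accessible chromatin was profiled by single-cell ATAC-seq, in which a transposase cuts and tags open DNA, on the Fluidigm C1, before induction (uninduced, 0 h) and after 24 h of 4OHT with a repeated dose (induced). Each time-point had 2 C1 runs, with 48 and 47 cells in the uninduced pair and 60 and 72 in the induced pair, all of the same line. The sources used here do not say whether runs came from separate cultures. The matrix held whole numbers from 0 to 2 for each region and cell, and a region was called detected in a cell when its value was above 0. The runs summed to between 92639 and 164357 counts, and cells to between 334 and 7940, with the highest median per cell, 2898 counts, in uninduced run 1. Regions within 1 kb of the start site were present for 8 of 11 pre-B markers (with signal in 8 to 38 of the 227 cells), among them Cd79a, Cd79b, Pax5 and Ebf1, though not for Rag1 or Rag2. They were present for 0 of 4 T cell and 0 of 3 erythroid markers and for 1 of 4 myeloid markers (Lyz2, in 6 cells).

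Divergent gene pairs are common in compact stretches of mammalian genomes, and many encode housekeeping proteins of DNA repair, mitochondria or the histone octamer. Such promoters usually lie in CpG islands and lack a TATA box. ETS factors such as GABPA are known for binding them, and histone pairs are known for CCAAT boxes, which NF-Y binds.

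The sequences below carry the comparisons that follow. They are from the member called between time-points and the members detected in the most cells, as far as these hold at least 30 bases outside annotated exons. Only the longest such stretch of each region is printed, on the forward strand of GRCm38 (mm10), in lower case. Capitals mark CCGGAAG, the letters ETS factors such as GABPA bind, or its reverse complement CTTCCGG, and CCAAT or its reverse complement ATTGG. The Hist1h2bf/Hist1h2ad stretch was added after its values were seen, to show a histone pair.
Kars/Terf2ip, chr8:112011324-112011397: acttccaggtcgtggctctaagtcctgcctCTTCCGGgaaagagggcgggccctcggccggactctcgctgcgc
Zfp654/Cggbp1, chr16:64851793-64851943: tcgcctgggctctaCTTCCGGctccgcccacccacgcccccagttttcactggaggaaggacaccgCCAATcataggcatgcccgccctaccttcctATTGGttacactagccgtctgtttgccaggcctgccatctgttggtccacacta
Rnf5/Agpat1, chr17:34604136-34604261: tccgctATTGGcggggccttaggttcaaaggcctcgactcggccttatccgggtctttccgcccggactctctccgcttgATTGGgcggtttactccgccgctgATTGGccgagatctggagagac
Adam9/Tm2d2, chr8:25017067-25017210: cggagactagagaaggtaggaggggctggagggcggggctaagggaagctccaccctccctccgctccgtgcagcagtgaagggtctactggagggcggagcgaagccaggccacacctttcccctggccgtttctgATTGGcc
Chtf18/Rpusd1, chr17:25727498-25727641: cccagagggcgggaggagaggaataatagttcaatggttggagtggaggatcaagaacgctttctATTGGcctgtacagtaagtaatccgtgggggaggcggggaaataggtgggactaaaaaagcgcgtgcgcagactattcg
Cep57/Fam76b, chr9:13827108-13827206: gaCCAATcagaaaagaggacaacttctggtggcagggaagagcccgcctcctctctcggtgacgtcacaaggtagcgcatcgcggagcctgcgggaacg
Aasdhppt/Kbtbd3, chr9:4309716-4309832: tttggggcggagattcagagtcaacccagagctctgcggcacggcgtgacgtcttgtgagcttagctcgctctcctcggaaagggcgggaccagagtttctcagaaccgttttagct
Atm/Npat, chr9:53536835-53536989: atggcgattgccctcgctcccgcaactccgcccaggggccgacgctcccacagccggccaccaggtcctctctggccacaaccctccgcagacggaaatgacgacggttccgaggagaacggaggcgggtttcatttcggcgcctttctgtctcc
Hist1h2bf/Hist1h2ad, chr13:23574270-23574380: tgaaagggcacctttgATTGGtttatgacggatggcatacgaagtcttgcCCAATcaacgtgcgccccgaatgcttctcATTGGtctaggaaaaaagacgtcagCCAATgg
In these stretches, CCGGAAG occurred 1 time at Kars/Terf2ip and 1 time at Zfp654/Cggbp1. CCAAT occurred 4 times at Hist1h2bf/Hist1h2ad and 3 times at Rnf5/Agpat1. The stretches of Aasdhppt/Kbtbd3 and Atm/Npat held neither, and held GGGCGG, the letters Sp1 binds, 2 times and 1 time.

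The 1115 regions belonged to 931 gene pairs, of which 760 had 1 region, 158 had 2 and 13 had 3. In 1077 regions exactly 2 genes had a start site within 1 kb, in 37 regions 3 genes and in 1 region 4. In 716 regions the pair was head-to-head, with transcription leaving from start sites a median of 130.5 bp apart, and in 399 regions the genes overlapped at their 5′ ends, by a median of 319 bp. The regions were narrow, with a median width of 147 bp, the same as for single-start regions, and 186 overlapped no annotated exon. Of the genome's 755 head-to-head pairs with start sites up to 1 kb apart, 616 (81.6%) had a member region, and so did 332 (72.6%) of the 457 pairs that overlap by up to 1 kb. Here a region near 3 or 4 genes counted for each of their pairs, whereas the 931 pairs above give each region 1 pair. Of the genes with an opposite-strand start site within 2 kb, 74.6% had an accessible region within 1 kb of their start, against 33.4% of the other protein-coding genes, a description of the annotation and the peak list with no test.

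**Figure D1:**
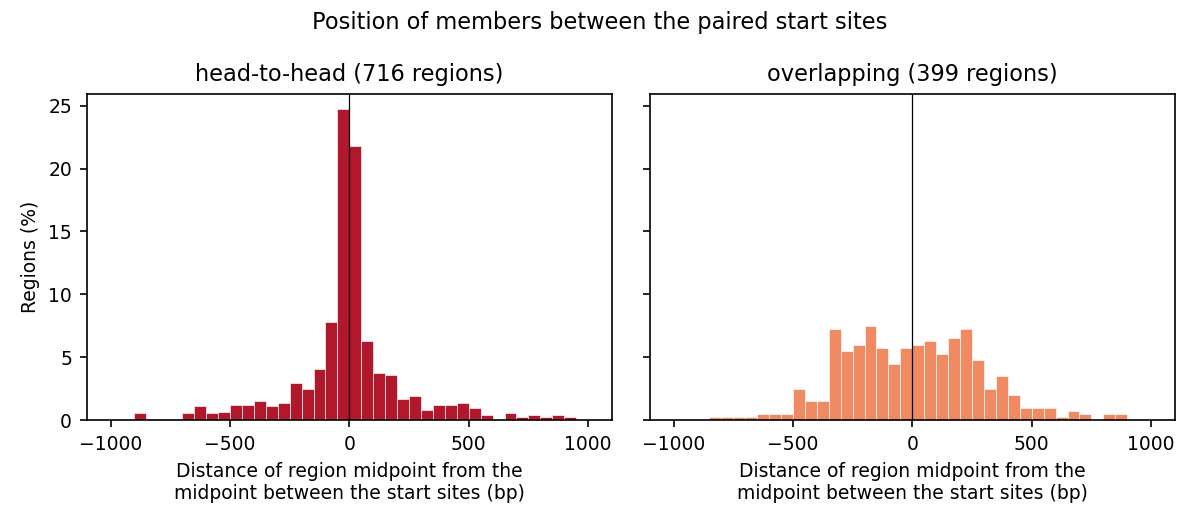
Position of the 716 head-to-head (left) and 399 overlapping (right) bidirectional promoter regions, as the distance in bp of the region's midpoint from the midpoint between the paired start sites, in bins of 50 bp, with the percent of regions in each bin on the vertical axis. Of the head-to-head regions, 60.8% lay within 100 bp of the middle, against 22.6% of the overlapping ones.

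Head-to-head regions sat between the start sites more often than overlapping ones. The midpoint of 391 of 716 head-to-head regions (54.6%) lay between them, and that of 137 of 399 overlapping regions (34.3%). The plot of positions shows a narrow peak at the middle for head-to-head pairs and a broad distribution for overlapping ones. Neither gene of the pair was favoured in number, with 573 midpoints closer to the reverse-strand start site, 538 closer to the forward-strand one and 4 equally far. The nearest start site was a median of 59 bp away and the farther one 226 bp.

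The limit of 1 kb cut through a sparse tail. The 3 members closest to it had their farther start site at 986 bp (Ankrd17/Gm9958), 998 bp (Hipk2/Tbxas1) and 999.5 bp (Slc39a6/Elp2), with signal in 23, 11 and 22 cells. The 3 regions just outside had it at 1004 bp (Zfyve26/Rad51b), 1011.5 bp (Hnrnpdl/Enoph1) and 1015.5 bp (Hras/Lrrc56), with signal in 20, 42 and 11 cells.

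Bidirectional promoter regions were detected in more cells than single-start regions in every run. Averaged over regions, they had signal in 13.8% of cells in uninduced run 1, 7.89% in uninduced run 2, 9.52% in induced run 1 and 10.8% in induced run 2. Single-start regions had signal in 12.8%, 7.19%, 8.86% and 9.49% of cells of the same runs. The runs differed more from each other than the classes did, and within a run the members were always higher. The mean within-run difference was 0.917 ± 0.296 percentage points (SD, n = 4 runs), a ratio of 1.10, higher in 4 of 4 runs (two-sided exact permutation test over signs, p = 0.13, the smallest that 4 differences can give, so 0.05 is out of reach). The adjusted p was 0.167 over the 8 comparisons of this kind that were made. With each cell thinned to 837 counts and 23 shallower cells dropped, the difference was 0.403 percentage points, again with p = 0.13 from the exact permutation test. Thinning lowers the share of cells with signal in both classes, so this difference is not on the same scale. Per cell, a median of 133.5, 73, 103 and 107.5 member regions were detected in the 4 runs. A member was detected in a median of 22 of the 227 cells, against 19 for single-start regions, and 535 members (48.0%) were detected in at least 10% of cells, against 38.4% of single-start regions.

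The higher detection lay in the head-to-head pairs. Their 716 regions had signal in 14.5% and 8.26% of cells in the uninduced runs and in 10.1% and 11.8% in the induced runs. The 399 overlapping regions had signal in 12.7%, 7.24%, 8.47% and 9.05% of cells of the same runs. Head-to-head regions exceeded overlapping ones by 1.79 ± 0.705 percentage points (SD, n = 4 runs), with the same sign in 4 of 4 runs (exact permutation test, p = 0.13, adjusted p = 0.167). They exceeded single-start regions by 1.56 ± 0.533 points (exact permutation test, p = 0.13, adjusted p = 0.167). Overlapping regions differed from single-start regions by -0.231 ± 0.232 points, within -0.447 and 0.0550 in the 4 runs, and the sign was not the same in all runs (exact permutation test, p = 0.25, adjusted p = 0.286).

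**Figure D2:**
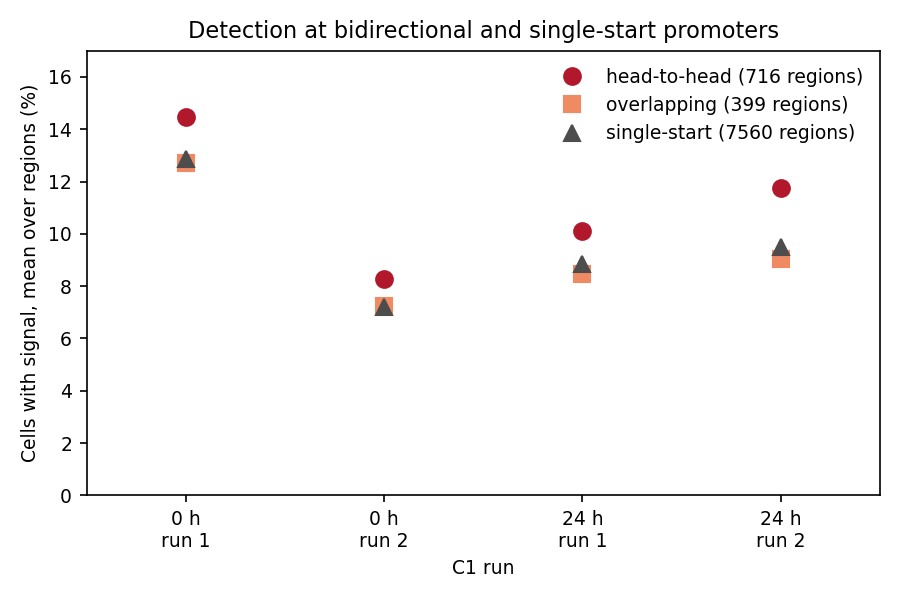
Percent of the cells of each C1 run with signal, averaged over the 716 head-to-head, 399 overlapping and 7560 single-start regions, with 1 point per class and run. Head-to-head regions lie highest in all 4 runs, from 8.26% to 14.5%, and overlapping regions lie next to single-start regions.

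The distance between the start sites ordered the head-to-head regions only in part. The 289 regions with start sites under 100 bp apart had signal in 9.24% of cells, averaged over runs, close to the 9.60% of single-start regions. The 284 regions at 100 to under 300 bp had signal in 12.4% and the 135 regions at 300 to under 1000 bp in 12.8%. The 8 regions at 1000 bp or more had signal in 7.13%, too few to place. The closest pairs were thus level with single-start regions, and no test was made between these spacings.

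Width and distance from the start were set side by side, since both bear on detection. In each of 5 classes of region width, from the narrowest (up to 111 bp) to the widest (152 bp or more), members were detected more often than single-start regions in 4 of 4 runs, by 0.632 to 0.952 percentage points. Among regions with the nearest start under 50 bp away the difference was 0.935 points, and at 50 to 99 bp 1.07 points, in 4 of 4 runs each. At 200 to under 500 bp it turned round, with 8.49% of cells for 119 members and 9.11% for 1087 single-start regions, and members were higher in 0 of 4 runs. At 100 to under 200 bp members were higher by 0.189 points and at 500 to 1000 bp by 0.460 points, in 3 of 4 runs each.

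Members and single-start regions were both rich in G and C. Median GC content was 64.6% in members and 65.9% in single-start regions, against 53.4% in regions without a start site within 1 kb. The ratio of observed to expected CpG was 0.897 in members, 0.850 in single-start regions and 0.278 in regions without a start site within 1 kb. Members thus held slightly less G and C and slightly more CpG than single-start regions, as a description with no test.

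Letters of 10 transcription factor motifs were searched as exact matches on both strands of each region. In percentage points, the ETS letters CCGGAAG differed most between the classes, though with head-to-head pairs only CCAAT differed more (5.88 points, against 4.94 for CCGGAAG). The ETS letters occurred in 230 members (20.6%, exact Clopper-Pearson 95% interval 18.3% to 23.1%) and in 1094 single-start regions (14.5%, interval 13.7% to 15.3%), against 8.80% of all regions. CCAAT (NF-Y) occurred in 33.2% of members (30.4% to 36.0%) and 29.0% of single-start regions (28.0% to 30.1%). For the other 8 the intervals overlapped. GGGCGG (Sp1) occurred in 51.2% of members and 52.5% of single-start regions, and TATAAA, the letters TBP binds, in 1.61% and 1.94%. TGGGAA, letters that Ikaros binds and that overlap the GGAA core of ETS letters, occurred in 10.8% and 9.47%, and GCATGCGC (NRF1) in 3.59% and 4.09%. AAGATGGCG (YY1) occurred in 2.78% and 1.88%, CACGTG (E-box) in 5.65% and 6.60%, ACTACAAT (ZNF143) in 0.897% and 0.608%, and TGACGTCA (CRE) in 3.68% and 2.91%. Among regions within 100 bp of a start site the ETS letters differed by 3.98 percentage points between the classes, against 6.16 over all. The intervals cover counting error only, and a match is a match of letters, not a bound site.

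**Figure D3:**
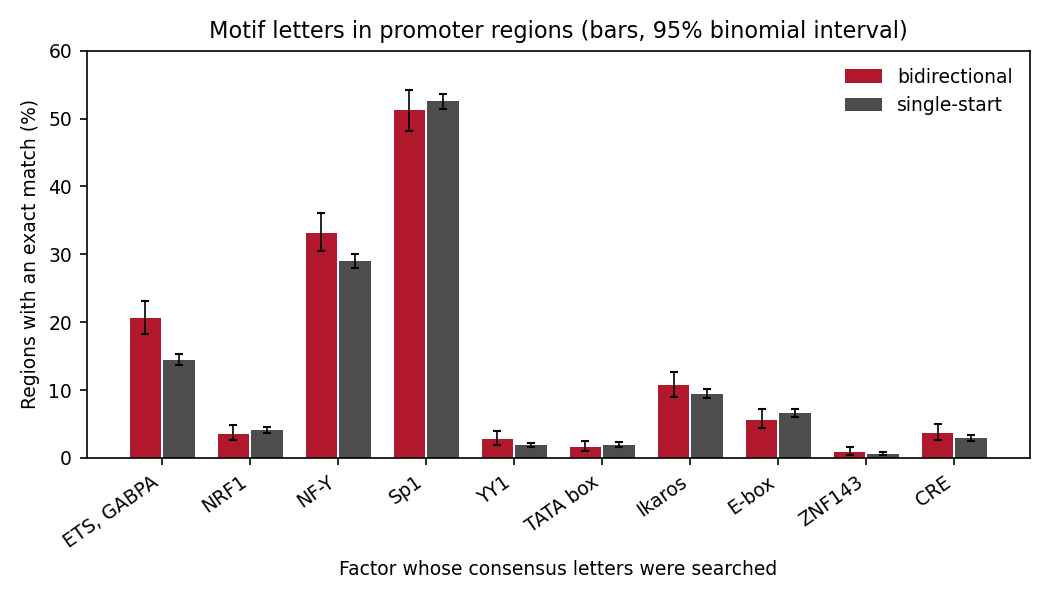
Percent of the 1115 bidirectional (red) and 7560 single-start (grey) promoter regions with an exact match to the letters of 10 motifs, named by factor on the horizontal axis, with exact 95% binomial intervals. The ETS letters occur in 20.6% of bidirectional and 14.5% of single-start regions.

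The ETS letters lay near the start sites and read in both directions. Of the 230 members with them, 111 held them on the forward strand only, 100 on the reverse strand only and 19 on both. The match lay a median of 26 bp from the nearest start site, and within 50 bp in 64.8% of these members, against 35.5 bp and 58.4% in single-start regions. They were most frequent in head-to-head regions with start sites under 100 bp apart, 79 of 289 (27.3%), and occurred in 22.8% of overlapping regions, 14.4% of those head-to-head at 100 to under 300 bp and 13.3% at 300 to under 1000 bp. The spacings with the most ETS letters were not those detected in the most cells, and no cause of this was tested. Members with the letters had signal in 14.4%, 8.28%, 9.67% and 11.4% of cells in the 4 runs, and members without in 13.7%, 7.79%, 9.48% and 10.6%. The difference was 0.539 ± 0.270 percentage points (SD, n = 4 runs, exact permutation test, p = 0.13, adjusted p = 0.167). The same difference in single-start regions was 0.306 ± 0.486 points, with a sign that varied between runs (exact permutation test, p = 0.5, adjusted p = 0.5). Members without the letters exceeded single-start regions without them by 0.850 ± 0.307 points (exact permutation test, p = 0.13, adjusted p = 0.167). Members with the letters exceeded single-start regions with them by 1.08 ± 0.409 points (exact permutation test, p = 0.13, adjusted p = 0.167).

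Only 8 members had signal in 72 or more cells. Aasdhppt/Kbtbd3, whose Aasdhppt product attaches phosphopantetheine to carrier proteins, had signal in 90 of 227 cells (39.6%). Its shares were 37.5% and 42.6% in the uninduced runs and 41.7% and 37.5% in the induced runs, which overlapped. Adam9/Tm2d2, with the gene of a membrane metalloprotease, followed with 85 cells and shares of 45.8%, 17%, 38.3% and 44.4%.
Mrpl18/Tcp1, which joins a mitochondrial ribosomal protein to a subunit of the CCT chaperonin, had signal in 77 cells, at 41.7%, 25.5%, 23.3% and 43.1% of the 4 runs. Chtf18/Rpusd1, with a gene of an alternative clamp loader of replication, had signal in 75 cells, at 29.2%, 23.4%, 20.0% and 52.8%. In both, induced run 1 lay lowest and induced run 2 highest. Cep57/Fam76b, with a centrosomal protein gene, had signal in 75 cells, at 43.8%, 36.2%, 35% and 22.2%. Zfp654/Cggbp1, whose Cggbp1 product binds CGG repeats, had signal in 74 cells, at 50.0%, 34.0%, 16.7% and 33.3%. In these 2 the uninduced runs lay above the induced runs.
Atm/Npat joins the kinase that signals DNA breaks to a coactivator of histone genes. It had signal in 73 cells, at 33.3% and 10.6% in the uninduced runs and 23.3% and 52.8% in the induced runs. Rnf5/Agpat1, a ubiquitin ligase and an enzyme of phospholipid synthesis, had signal in 72 cells, at 37.5%, 14.9%, 33.3% and 37.5%. Per unit of depth, the TMM-normalized CPM (counts scaled to a common run total) of Atm/Npat were 152 and 83.6 at 0 h and 154 and 381 at 24 h, which did not overlap. In CPM those of Cep57/Fam76b (206, 272, 291 and 191) and of Zfp654/Cggbp1 (237, 240, 137 and 271) overlapped between time-points. For the 8 most-detected regions together, shares in single runs reached from 10.6% to 52.8%.

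**Figure D4:**
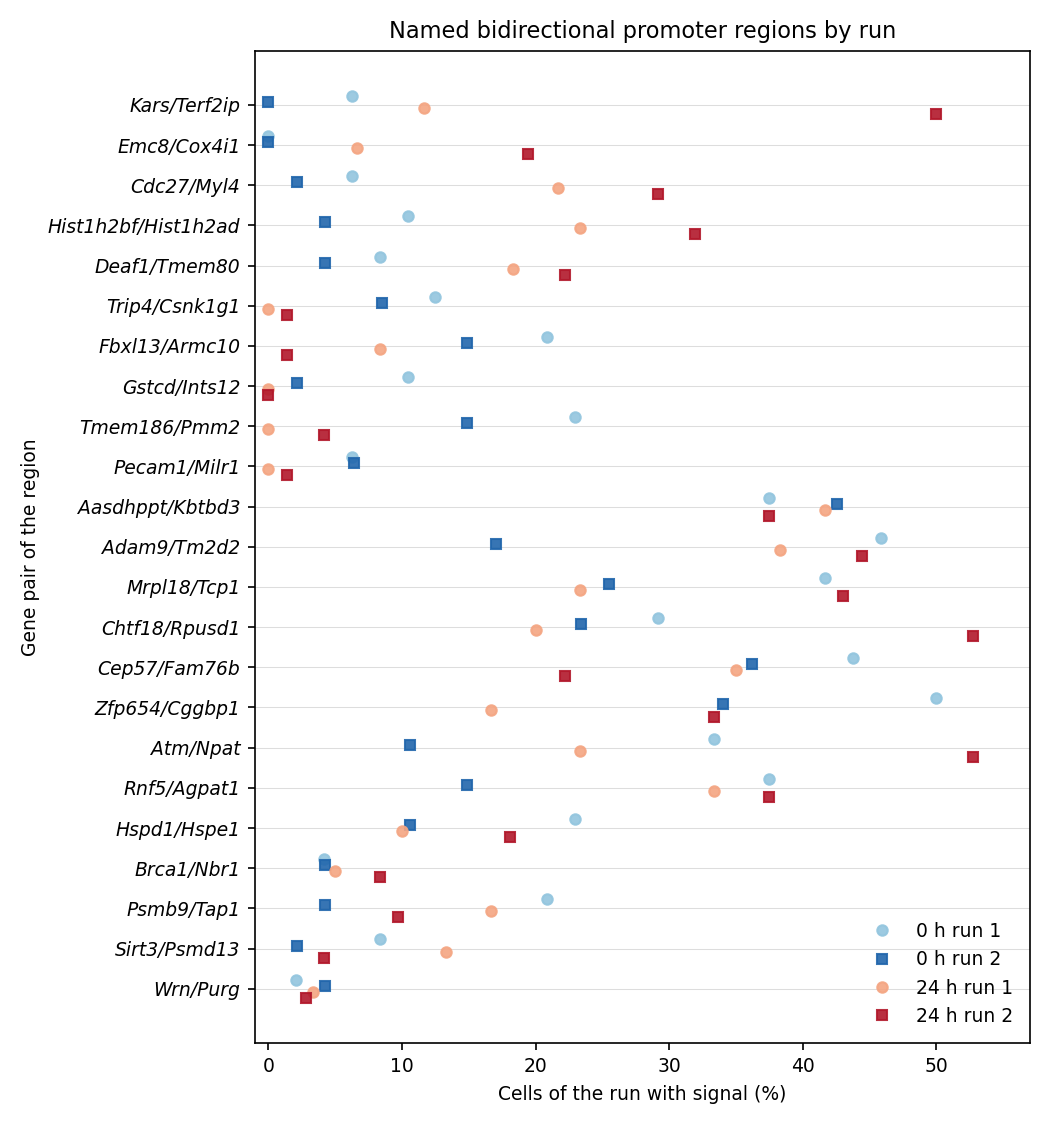
Percent of cells of each C1 run with signal at each named bidirectional promoter region, with 1 point per run (blue for 0 h, red for 24 h) and gene pairs on the vertical axis. At Kars/Terf2ip the induced runs are at 11.7% and 50.0% and the uninduced runs at 6.25% and 0%, while Aasdhppt/Kbtbd3 lies between 37.5% and 42.6% in all runs.

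Of 14 divergent pairs known from textbooks, 9 had a member region. Hspd1/Hspe1, the mitochondrial chaperonin pair, had signal in 22.9% and 10.6% of uninduced cells and 10.0% and 18.1% of induced cells by run. Psmb9/Tap1, of antigen processing, had signal in 20.8%, 4.26%, 16.7% and 9.72%. In both pairs the time-points overlapped.
Sirt3/Psmd13, a mitochondrial deacetylase and a proteasome subunit, had signal in 8.33%, 2.13%, 13.3% and 4.17% of cells, and Wrn/Purg, with the gene of the Werner helicase, in 7 cells in all. The Brca1/Nbr1 region nearest the middle, between a DNA repair gene and an autophagy receptor gene, had signal in 4.17%, 4.26%, 5.0% and 8.33% of cells. The other member region of this pair had signal in 18.8%, 6.38%, 16.7% and 22.2%. Kars/Terf2ip, Emc8/Cox4i1 and Atm/Npat were also among the 9. At these depths the regions nearest the middle of these pairs spanned from 7 to 73 cells.

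From 0 h to 24 h, bidirectional promoter regions took a larger share of the signal, and did so along with the other promoters. Their share of a run's counts was 6.84% and 6.56% in the uninduced runs and 7.83% and 9.22% in the induced runs, without overlap. The difference was 1.82 percentage points (2 runs per time-point, exact two-sided permutation, p = 0.33, the lowest value possible in this design, adjusted p = 0.667 over the 2 shares tested). Without induced run 2 it was 1.13 points. Single-start regions went from 43.5% and 41.4% to 49.8% and 56.3%, and regions with no start site within 1 kb from 49% and 51.5% to 41.7% and 33.6%. The ratio of signal in members to that in single-start regions was 0.157 and 0.159 at 0 h and 0.157 and 0.164 at 24 h, which overlapped (log2 difference 0.0239, exact permutation test, p = 0.667, adjusted p = 0.667).

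Region by region, the median log2 change from 0 to 24 h was 0.35 in members and 0.33 in single-start regions, against -0.06 in all regions, under edgeR with TMM normalization. It was -0.12, -0.15 and -0.51 when the number of cells replaced the normalization, so the direction for members turns with the scaling while their place above all regions does not. Of the members, 66.6% had a log2 change above 0. The median was 0.38 in head-to-head and 0.32 in overlapping regions.
In CPM, both induced runs lay above both uninduced runs in 325 members (29.1%), where this held for 19.3% of all regions and 28.0% of single-start regions. In 137 members (12.3%) both uninduced runs lay above both induced runs, against 25.7% of all regions and 13.3% of single-start regions. At an unadjusted p of 0.05 edgeR's quasi-likelihood test counted 81 members higher at 24 h and 9 higher at 0 h, against backgrounds of 5.11% and 7.0% of all regions. Those are 7.26% and 0.807% of members, and for single-start regions the shares were 7.75% and 2.04%. DESeq2 counted 40 and 1 members at an unadjusted p of 0.05, beside 452 and 633 of all regions. With scaling by cell number edgeR counted 24 and 19 members, beside 258 and 1854 of all 20103 regions and 110 and 230 of the single-start regions.

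**Figure D5:**
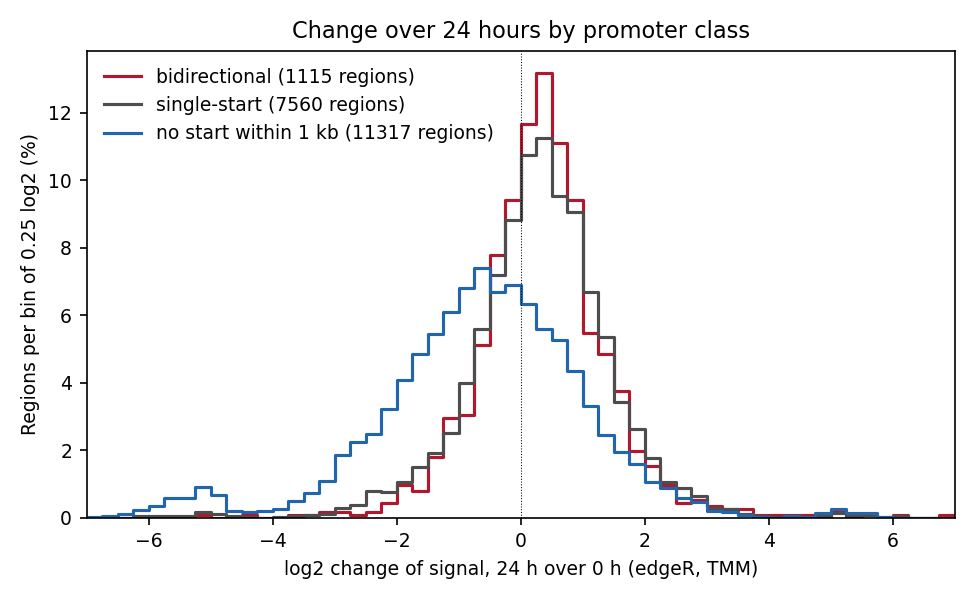
Distribution of the log2 change of signal from 0 to 24 h (edgeR with TMM, horizontal axis) over bidirectional (red), single-start (grey) and start-free (blue) regions, as the percent of regions per bin of 0.25. Bidirectional and single-start regions lie nearly on each other, with medians of 0.35 and 0.33, and regions without a start site within 1 kb lie lower.

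After Benjamini-Hochberg adjustment over all 20103 regions, 1 member passed an adjusted p of 0.05 with higher signal at 24 h, where 0.0398% of all regions did. For higher signal at 0 h, 0 members passed, where 0.0149% of all regions did. DESeq2 called 0 in either direction.
The member was Kars/Terf2ip, on chromosome 8, whose genes encode lysyl-tRNA synthetase and the telomere protein RAP1. The region (chr8:112011289-112011415) spans the 75 bp between the start sites, and the CTTCCGG printed above lies within it. It had signal in 3 of 48 cells of uninduced run 1 and 0 of 47 of uninduced run 2, or 3 of 95 together (3.16%, exact 95% interval 0.656% to 8.95%). It had signal in 7 cells (11.7%) of induced run 1 and 36 cells (50.0%) of induced run 2, or 43 of 132 together (32.6%, interval 24.7% to 41.3%). The intervals pool cells over runs, and both induced runs lay outside the latter. The sums were 4, 0, 13 and 62 counts, so both induced runs lay above both uninduced runs and most of the signal came from induced run 2. The log2 change was 4.16 (standard error 0.76, edgeR adjusted p = 0.00932). Without uninduced run 1 the log2 change was 8.08, a fitted value against a run with no count and no bound. The call was lost without induced run 2 (log2 change 2.75, edgeR adjusted p = 0.289) and under DESeq2 (adjusted p = 0.847). It was also lost without uninduced run 2 (edgeR adjusted p = 0.145), under scaling by cell number (0.132) and for detected or not detected values (0.236), at log2 changes of 3.49, 3.63 and 3.80, and of 4.42 under DESeq2. The nearest regions on either side, at -19044 bp and 19527 bp from its midpoint, had signal in 6 and 3 uninduced cells and in 5 and 3 induced cells, with log2 changes of -0.00 and 0.01.

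The other members closest to a call with higher signal at 24 h did not pass. Emc8/Cox4i1 pairs a subunit of the endoplasmic reticulum membrane complex with a subunit of cytochrome c oxidase. Its region had signal in 0 of 95 uninduced cells, where a share of up to 3.16% remains possible (3 counts of the total), and in 6.67% and 19.4% of cells in the induced runs. This is at least 9.69-fold higher at 24 h against a floor of 3 counts over the uninduced runs (edgeR adjusted p = 0.0563). The bound takes the induced runs together. Their CPM were 64.7 and 154, so with induced run 1 alone the bound would be lower.
Cdc27/Myl4, with a gene of the anaphase-promoting complex, had signal in 6.25% and 2.13% of cells at 0 h and 21.7% and 29.2% at 24 h (log2 change 3.13, standard error 0.74, edgeR adjusted p = 0.0898). Deaf1/Tmem80, with a transcription factor gene, had signal in 8.33%, 4.26%, 18.3% and 22.2% (log2 change 2.72, standard error 0.70, edgeR adjusted p = 0.113). In both, the induced runs lay close to each other and well above the uninduced runs.

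The 5 members with the smallest p among those with both uninduced runs above both induced runs did not pass. Fbxl13/Armc10 had signal in 20.8% and 14.9% of uninduced cells and 8.33% and 1.39% of induced cells by run (log2 change -1.87, standard error 0.78, edgeR adjusted p = 0.309). With each run left out its log2 change lay between -2.91 (without induced run 1) and -1.24 (without induced run 2). Tmem186/Pmm2, whose Pmm2 product makes mannose 1-phosphate for glycosylation, had signal in 22.9%, 14.9%, 0% and 4.17% (log2 change -2.21, standard error 0.95, edgeR adjusted p = 0.320). Its log2 change was -1.29 without induced run 1 and -6.56 without induced run 2, which holds all of its induced signal, so the latter is a fitted value and no bound. Both held the ETS letters.
Trip4/Csnk1g1, with a transcriptional coactivator gene, had signal in 10 uninduced cells and 1 induced cell, and Pecam1/Milr1, of the adhesion molecule PECAM-1 and a mast cell receptor, in 6 and 1. Gstcd/Ints12, with a gene of the Integrator complex, had signal in 6 uninduced cells and 0 of 132 induced cells, where a share of up to 2.27% remains possible. Of these 6 cells 5 were in uninduced run 1 (10.4% of its cells) and 1 in uninduced run 2 (2.13%), and the edgeR adjusted p was 0.315.

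At divergent histone genes 11 member regions lay near 19 core histone genes. Of these regions 8, all in the Hist1 cluster, joined an H2A or H3 gene to an H2B gene on chromosome 13. Histone proteins package DNA and are made mainly during replication. The regions together held 96 and 58 counts in the uninduced runs and 125 and 209 in the induced runs, or 0.0584%, 0.0626%, 0.102% and 0.147% of the runs' signal, without overlap between time-points. At an edgeR unadjusted p of 0.05, 4 of the 11 counted as higher at 24 h and 0 as higher at 0 h, against the backgrounds of 5.11% and 7.0%, and 0 passed the adjusted threshold.
Hist1h2bf/Hist1h2ad had signal in 10.4% and 4.26% of cells in the uninduced runs and 23.3% and 31.9% in the induced runs (log2 change 2.38, standard error 0.61, edgeR adjusted p = 0.113). Hist1h2ag/Hist1h2bj had signal in 8.33%, 4.26%, 20.0% and 26.4% (log2 change 2.83, standard error 0.73, edgeR adjusted p = 0.113). Hist1h2bl/Hist1h2ai had signal in 6.25%, 6.38%, 10.0% and 31.9%. In the 3 regions both induced runs lay above both uninduced runs. In CPM, 5 of the 11 regions had both induced runs above both uninduced runs and 3 the reverse, where this held for 19.3% and 25.7% of all regions. Those 3 were both Bola1/Hist2h2ab regions, in 5 and 7 cells in all, and Hist1h2bh/Hist1h3f, with 25.0%, 17%, 13.3% and 11.1%. At Hist1h2ah/Hist1h2bk the shares of 12.5%, 17%, 18.3% and 16.7% overlapped.
Of the 11 regions 10 held CCAAT and 4 held TATAAA, where 33.2% and 1.61% of all members did, and none of the 11 held CCGGAAG. The 10 regions long enough to be scored each matched 1 place in the genome, at 90% identity over 80% of their length. Hist1h2ag, Hist1h2bl and the other histone pairs named here beyond Hist1h2bf/Hist1h2ad were chosen after their values were seen.

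Gene groups were also counted by how many of their accessible promoters were bidirectional, as a description with no test. Over all genes with an accessible region within 1 kb of their start, 22.3% had a member region. The share was 42.9% for mitochondrial ribosomal proteins (27 of 63 genes), 40.9% for oxidative phosphorylation (27 of 66) and 39.7% for DNA repair (25 of 63). It was 43.2% for histone genes (19 of 44), picked by names that also match linker histone genes. It was 37.0% for chaperones (10 of 27) and 28.1% both for aminoacyl-tRNA synthetases and for proteasome subunits (9 of 32 each). It was 27.9% for DNA replication (12 of 43), 17.9% for cytosolic ribosomal proteins (12 of 67) and 11.8% for zinc finger proteins (28 of 237). Among B-lineage genes 2 of 18 had one, Vpreb1 of the surrogate light chain and the germinal center repressor gene Bcl6.

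Apart from Kars/Terf2ip, 0 member regions of the lists passed the adjusted threshold in either direction. At an edgeR unadjusted p of 0.05 and higher at 24 h, there were 3 of 28 DNA repair regions, 2 of 14 of DNA replication, 3 of 29 of mitochondrial ribosomal proteins and 3 of 14 of cytosolic ribosomal proteins, where 5.11% of all regions and 7.26% of members did. There were also 3 of 30 of oxidative phosphorylation, 1 of 10 of proteasome subunits, 2 of 33 of zinc finger proteins and 1 of 8 of aminoacyl-tRNA synthetases, and 0 of 10 for chaperones and 0 of 2 for B-lineage genes. In every list 0 regions counted as higher at 0 h, where 7.0% of all regions and 0.807% of members did. The median log2 change was 0.23 for DNA repair, 0.54 for DNA replication, 0.53 for mitochondrial and 0.43 for cytosolic ribosomal proteins, 0.27 for oxidative phosphorylation and -0.00 for chaperones. It was 0.72 for proteasome subunits, 0.39 for aminoacyl-tRNA synthetases, 0.46 for zinc finger proteins, 0.68 for core histones and 0.24 for B-lineage genes, beside 0.35 over all members.
Named after their values were seen, Rps18/Vps52, with a gene of the small ribosomal subunit, had signal in 14.6% and 10.6% of uninduced cells and 23.3% and 30.6% of induced cells by run (log2 change 1.98, standard error 0.56, edgeR adjusted p = 0.146). Ncapd2/Mrpl51, a condensin gene beside a mitochondrial ribosomal protein gene, had signal in 12.5%, 17%, 16.7% and 40.3%, and those shares overlapped. Rpa1/Smyd4, with the large subunit of the single-strand binding protein of replication, had signal in 14.6%, 4.26%, 11.7% and 22.2%. In all of these promoters the highest share was in induced run 2. Vpreb1/Top3b had signal in 8.33% and 8.51% of uninduced cells and 6.67% and 6.94% of induced cells, with a log2 change of -0.05 once depth was scaled (edgeR adjusted p = 0.991).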

How the data were processed

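Per the labels and the study's methods, the authors mapped single-cell ATAC-seq libraries to mm10 with Bowtie2, removed duplicates with Picard and quantified cells in HOMER peaks of bulk samples. They deposited raw counts per region and cell. The largest is 2, and no source used here explains this. All 227 columns were used, and the bulk samples were not. The members, gene lists and motifs were chosen with earlier results of these data known.

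Run values, not cells, entered every test. The edgeR tests used run sums, so their p-values measure the spread between C1 runs. The within-run comparisons used the share of cells with signal in each run. All 20103 regions were fitted with edgeR 4.0.16 in R 4.3.3 (quasi-likelihood test, TMM, Benjamini-Hochberg adjustment, threshold 0.05). Requiring 5 cells per region removed 0 regions. Tests over runs were two-sided exact permutation tests, by sign flips for within-run differences and in SciPy 1.17.1 for 24 h against 0 h. Binomial intervals (95%) and the limit of 3 counts for a count of 0 cover counting error only. The scripts were tested on simulated data, where the region test had little power at the spread between these runs, so a low number of calls does not show that regions did not differ. The study inspected capture sites, and doublets were not called here.

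Start sites came from protein-coding gene records of GENCODE vM21 and sequence from GRCm38, the build of the deposited regions. Region starts were read as 1-based. If they are 0-based, a printed stretch can begin 1 base late. Copies were counted by BLAST 2.17.0 at 90% identity over 80% of a region, and 10 members had more than 1. Named regions were the members called, up to 5 per direction with the smallest p among those whose runs did not overlap between time-points, the 8 detected in the most cells, and for textbook divergent pairs the member nearest the middle of the start sites. Of the last, 1 is not reported here. Alternatives covered scaling, DESeq2 1.42.0, detected or not detected values, filters, thinned cells, other rules of membership and each run left out.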

Additional observations from a re-analysis of the deposited data

How the results depend on the processing

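The higher detection of bidirectional than single-start regions kept its direction in the alternatives run, from 0.403 points with thinned cells to 1.56 with head-to-head pairs only, and from 0.789 to 1.00 with each run left out. The larger share of signal at 24 h ranged from 1.13 points without induced run 2 to 2.52 without induced run 1. The ratio to single-start regions turned to a log2 of -0.00958 with thinned cells and ranged from -0.00474 to 0.0526 with each run left out. From 1 member called higher at 24 h, the number was 3 under scaling by run totals, where 21 of all regions were called higher (8 under TMM). It was 0 each under scaling by cell number, for detected or not detected values and under DESeq2. With each run left out it ranged from 0 to 45, and members called higher at 0 h from 0 to 2. The upper values came without induced run 1, where the lone induced run is assumed to vary like the uninduced runs, and 456 and 341 of all regions were then called. The median log2 change of members and of single-start regions was -0.12 and -0.145 under scaling by cell number, and 0.128 and 0.162 in regions with signal in 10% of cells or more. It ranged from 0.148 to 0.534 and from 0.167 to 0.515 with each run left out. In 300 bp around the midpoint the difference in mean GC was -0.507 points, in place of -1.02 from means of 64.4% and 65.4% over whole regions. The difference in the share with CCGGAAG was 9.97 points in place of 6.16. The cause of these shifts was not tested. The 10 named changes were picked among members whose runs did not overlap between time-points, so a turned direction was unlikely. Refits without the filter of 5 cells repeat the main fit. The direction was kept in 105 refits, these included. Kars/Terf2ip lost its call in 5 of them, and in 6 refits another named member passed, 4 of them without induced run 1 and 2 under run totals. The columns number the runs 1 and 2 at each time-point, while the labels number the C1 experiments 1 to 4. With run number as a replicate block, a choice made after seeing the data, 1 and 0 members were called, beside 9 and 2 of all regions. At an edgeR unadjusted p under 0.05 there were 53 and 4 members (81 and 9 without the block), beside 663 and 856 of all regions. The median log2 change of members was then 0.335. The differences between runs 1 and 2 at 0 h and at 24 h had a correlation of -0.0227 over regions. Whether same-numbered runs share more than a number cannot be told from this. With 2 runs per time-point, values of at most 2 per cell and most members seen in under 10% of cells, the depth limits what can be said of single members.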

Other observations

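At 171 gene pairs the bidirectional promoter held more than 1 accessible region, over a median span of 660 bp. At Cep57/Fam76b the 2 regions had signal in 75 and 69 of 227 cells, in 33 cells together and in 111 cells in either. At Rnf5/Agpat1 they had signal in 72 and 58 cells, in 22 together and in 108 in either. At Xrcc4/Tmem167, with a gene of DNA end joining, they had signal in 71 and 34 cells, and in 17 together. In 83 of the 171 pairs (48.5%) the log2 changes of all regions of the pair had the same sign. No share for unrelated regions was computed beside it, and 66.6% of all members had a log2 change above 0. The promoters named here were singled out after their values were seen.

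The 120 members with TGGGAA, letters that Ikaros binds, had a median log2 change from 0 to 24 h of 0.17, and the 995 members without them 0.37. In single-start regions the medians were 0.23 and 0.34. No test was made of this difference. Members with TGGGAA had signal in 14.1% and 8.32% of uninduced cells and 8.97% and 9.49% of induced cells by run, and members without in 13.8%, 7.84%, 9.59% and 11%.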
